A study of Mus musculus with 14 samples.

Results

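H3K4me3, the trimethylated form of lysine 4 of histone H3, was examined at 6 mouse genes of 3 demethylase families with members that remove methyl groups from this residue. The genes were Kdm5a, Kdm5b, Kdm1a, Kdm1b, Kdm2a and Kdm2b, out of 21938 protein-coding genes. They were chosen by name. A peak counted for a gene if at least 1 of its bases fell in the gene body or no farther than 1 kb from an annotated transcription start site (TSS) of the gene. An enhancer counted if it lay in the gene or within 50 kb of it. The ChIP-seq data came from immortalized mouse embryo fibroblasts (iMEF), which were derived from animals with a conditional Ash2l allele. The cells had lost exon 4 of both alleles and lived on human ASH2L fused to FKBP, expressed from a lentiviral construct. ASH2L belongs to the core of every KMT2 methyltransferase complex. dTAG brings an E3 ubiquitin ligase to the FKBP moiety, and the fusion protein is then degraded. Every group shared this deletion and this fusion, and the cells of the ChIP-seq experiments were 1 clone per the study's own description. The labels give 12 H3K4me3 libraries, 2 replicates each of cells without dTAG and of cells kept in dTAG. The exposures lasted 30 min or 2, 4, 8 and 16 h. Another 2 libraries were inputs, 1 without dTAG and 1 after 16 h.

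The data analysed were 2 lists of positions that were made over several libraries. The first gives 25431 H3K4me3 peaks found across all H3K4me3 libraries, 25357 of them on chromosomes 1 to 19, X and Y. The second gives 32965 putative enhancers of control cells, regions positive for H3K4me1, H3K27ac and accessible chromatin. Those signals came from libraries other than the ones described above. The paper gives a slightly smaller number of putative enhancers than this list holds. Neither list has a height, a score or a value per library. The depth of the libraries is unknown here, the values below have no replicate error, and time points were not compared. A peak says that H3K4me3 was called at that place over the libraries as a whole, not in which of them. Of 12 fibroblast markers, 10 had a peak within 1 kb of a TSS and Dcn and Lum had none. The same held for 0 of 4 markers of blood cells, 0 of 4 of pluripotent cells, 1 of 4 of neurons, and 2 of 4 each of epithelium and endothelium.

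The 6 genes fall into 3 families. KDM5A and KDM5B are dioxygenases with a JmjC domain that act on trimethylated and dimethylated H3K4 and work with SIN3 and other corepressor complexes. KDM1A (LSD1) and KDM1B (LSD2) are flavin-dependent amine oxidases that act on mono- and dimethylated H3K4 but not on the trimethylated form. KDM1A is part of corepressor complexes with CoREST, and KDM1B was linked to gene bodies and to imprinting in oocytes. KDM2A and KDM2B carry a JmjC domain and a CXXC zinc finger, which binds CpG dinucleotides without methylation and so brings the proteins to CpG islands. They are best known as demethylases of H3K36, activity on H3K4me3 was described for KDM2B as well, and KDM2B recruits a variant Polycomb repressive complex 1 (PRC1). H3K4me3 itself marks the starts of genes, most of all at CpG islands. CpG islands are stretches rich in CpG.

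Sequences of the start sites are shown first, because the genes differed in where their peaks and CpGs lie. The RefSeq promoter table (build GRCm38.p6, 250 bases before and 50 bases from a start) held 7 windows of 4 of the genes, Kdm5b, Kdm1a, Kdm1b and Kdm2b. Kdm5a and Kdm2a had no entry. The 6 windows printed here include only 1 of an overlapping pair at the internal Kdm2b start, and capitals mark every CpG. The labels first, next and internal for Kdm2b refer to starts in that promoter table. The last line is not a promoter window but the central 300 bases of the internal Kdm2a peak, from the same build, which lie in an intron.
Kdm5b, chr1:134559928-134560227, plus strand: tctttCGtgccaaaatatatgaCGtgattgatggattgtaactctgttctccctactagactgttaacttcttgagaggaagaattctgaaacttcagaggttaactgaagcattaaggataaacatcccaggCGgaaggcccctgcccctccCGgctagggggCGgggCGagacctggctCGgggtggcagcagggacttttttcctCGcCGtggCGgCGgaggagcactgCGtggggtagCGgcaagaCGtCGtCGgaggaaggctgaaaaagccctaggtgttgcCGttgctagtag
Kdm1a, chr4:136602674-136602973, minus strand: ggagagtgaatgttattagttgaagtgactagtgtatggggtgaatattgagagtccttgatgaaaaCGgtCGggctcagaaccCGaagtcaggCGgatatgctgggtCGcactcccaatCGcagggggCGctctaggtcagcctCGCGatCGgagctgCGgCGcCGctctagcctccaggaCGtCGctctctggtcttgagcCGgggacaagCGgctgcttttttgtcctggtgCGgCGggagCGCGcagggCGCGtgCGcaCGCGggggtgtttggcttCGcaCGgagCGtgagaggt
Kdm1b, chr13:47043249-47043548, plus strand: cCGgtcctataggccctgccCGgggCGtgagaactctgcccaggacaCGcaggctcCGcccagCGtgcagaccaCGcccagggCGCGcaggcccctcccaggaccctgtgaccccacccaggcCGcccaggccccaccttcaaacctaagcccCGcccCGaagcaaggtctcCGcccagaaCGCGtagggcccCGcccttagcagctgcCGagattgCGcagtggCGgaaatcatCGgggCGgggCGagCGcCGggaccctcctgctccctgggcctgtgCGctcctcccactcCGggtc
Kdm2b, first start, chr5:122989050-122989349, minus strand: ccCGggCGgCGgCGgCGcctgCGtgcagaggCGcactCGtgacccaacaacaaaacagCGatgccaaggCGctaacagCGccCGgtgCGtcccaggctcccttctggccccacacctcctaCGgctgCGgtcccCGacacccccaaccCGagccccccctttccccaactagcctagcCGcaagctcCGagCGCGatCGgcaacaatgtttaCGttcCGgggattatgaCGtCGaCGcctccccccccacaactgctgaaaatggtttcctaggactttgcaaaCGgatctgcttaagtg
Kdm2b, next start, chr5:122988458-122988757, minus strand: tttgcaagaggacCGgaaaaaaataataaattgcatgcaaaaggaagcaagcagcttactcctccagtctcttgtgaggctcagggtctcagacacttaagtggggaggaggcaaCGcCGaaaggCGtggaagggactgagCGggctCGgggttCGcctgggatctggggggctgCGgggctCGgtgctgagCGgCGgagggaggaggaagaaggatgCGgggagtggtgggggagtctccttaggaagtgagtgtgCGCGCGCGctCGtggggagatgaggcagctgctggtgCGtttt
Kdm2b, internal start, chr5:122900301-122900600, minus strand: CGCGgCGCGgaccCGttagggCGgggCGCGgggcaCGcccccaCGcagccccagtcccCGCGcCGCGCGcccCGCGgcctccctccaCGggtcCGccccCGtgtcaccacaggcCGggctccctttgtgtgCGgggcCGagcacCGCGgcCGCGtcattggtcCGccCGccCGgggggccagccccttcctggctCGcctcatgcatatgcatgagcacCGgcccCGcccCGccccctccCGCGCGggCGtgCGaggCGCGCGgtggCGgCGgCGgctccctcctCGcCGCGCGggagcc
Kdm2a, centre of the internal peak, chr19:4333113-4333412, minus strand: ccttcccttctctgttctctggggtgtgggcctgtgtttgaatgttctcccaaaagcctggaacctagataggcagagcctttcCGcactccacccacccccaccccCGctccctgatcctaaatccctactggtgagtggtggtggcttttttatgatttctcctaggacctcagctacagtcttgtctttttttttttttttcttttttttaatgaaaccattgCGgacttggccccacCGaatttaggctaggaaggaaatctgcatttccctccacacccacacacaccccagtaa

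The window of the internal Kdm2b start held 49 CpGs in 300 bases, the most of the 7 windows in the table. Its GC content was 81.7%. The first Kdm2b start in the promoter table had 28 CpGs and the next one 18. The outermost annotated TSS of Kdm2b, at chr5:122989823, lies upstream of that first window. Kdm1a had 29, Kdm1b 26 and Kdm5b 17. Over the 20125 windows of protein-coding genes in the table, the median was 14 CpGs with quartiles of 4 and 25, so that Kdm5b and the next Kdm2b start lay between the median and the upper quartile and the other 4 windows printed above it. The stretch from the middle of the internal Kdm2a peak held 4 CpGs. Peaks covered all 300 bases of each Kdm2b window, 273 of Kdm5b, 137 of Kdm1a and 95 of Kdm1b.

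The windows were searched on both strands for short promoter motifs, none of whose letters contain another. GGGCGG, the GC box bound by SP factors, was in 5 of the 7 windows and in 47.7% of all 20125 windows. CCAAT was in 3 of 7 and in 37.8% of all. These 3 were Kdm1a and the overlapping pair of windows at the internal Kdm2b start. TATAAA (12.1% of all windows), CCGGAAG (the ETS motif, 11.9%), CACGTG (the E-box, 8.03%), GCGCATGC (the NRF1 core, 3.65%), ATGGCGGC (the YY1 motif, 3.11%) and TGACGTCA (the CRE, 2.32%) were found in 0 of the 7.

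Every one of the 6 genes had a peak within 1 kb of a TSS, as did 59.1% of all protein-coding genes. In each of them the outermost annotated TSS lay inside a peak. Altogether 15 peaks were assigned, 13 of them within 1 kb of a TSS and 11 with a TSS of the gene inside. Their widths ran from 250 to 2475 bp with a median of 1182 bp, against a median of 683 bp over all peaks. The peaks were distributed unevenly over the families. Kdm5a, Kdm5b and Kdm1a had exactly 1 peak each (31.3% of coding genes) and Kdm1b had 2. Kdm2a and Kdm2b had 5 peaks each, and 1.60% of coding genes had 5 or more. That share is over coding genes of any length, with or without a TSS peak. Kdm2a and Kdm2b are 83867 and 119159 bp long, Kdm5a and Kdm5b 80451 and 75115 bp, and the median coding gene 17425 bp. When peaks within 1 kb of each other were merged, Kdm2a had 2 and Kdm2b 3 (9.38% and 2.39% of coding genes had as many or more), and the other 4 genes had 1 each. The map of peaks, start clusters and enhancers shows this split, with marks at the 5′ end alone in the KDM5 and KDM1 genes and further peaks deep inside both KDM2 genes.

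**Figure D1:**
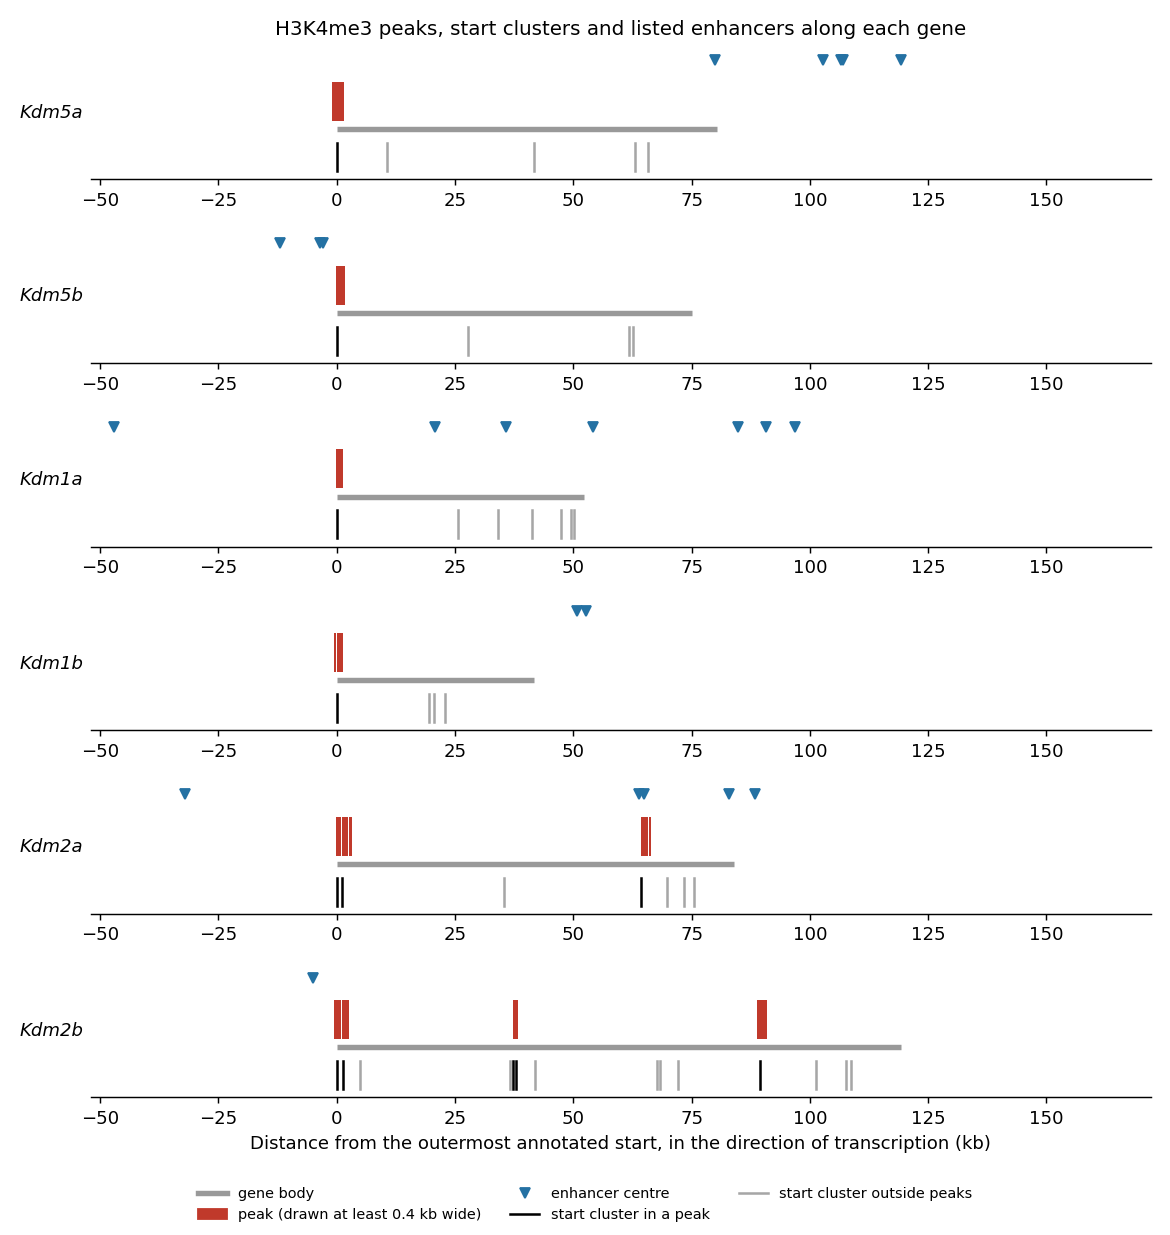
H3K4me3 peaks (red boxes), start clusters (black ticks inside a peak, grey ticks outside) and centres of listed enhancers (blue triangles) along the 6 genes, drawn as distance in kb from the outermost annotated start in the direction of transcription, with the gene body as a grey bar. Kdm5a, Kdm5b, Kdm1a and Kdm1b have peaks at the 5′ end only, whereas Kdm2a and Kdm2b also have peaks between 37288 and 90979 bp further in.

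Kdm5a (ENSMUSG00000030180, chr6:120364124-120444574, plus strand) encodes the demethylase first found as a partner of the retinoblastoma protein. Its single peak, chr6:120363100-120365574, was the widest of the 15 with 2475 bp, and 92.9% of the 12966 coding genes with a TSS peak had a narrower widest peak. The peak reached 1024 bp upstream of the first TSS and 1450 bp downstream. Of the peak, 41.4% lay outside Kdm5a. It also contained a TSS of Ccdc77, a gene of the opposite strand. A TSS peak that holds the TSS of another gene was found for 3 of the 6 genes and for 31.4% of coding genes with a TSS peak. Within Kdm5a, 32.2% of the peak lay in intron, 19.8% in noncoding exon and 6.67% in coding exon. The 4 further start clusters of Kdm5a, 10693 to 65699 bp inside the gene, had no peak.

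Kdm5b (ENSMUSG00000042207, chr1:134560171-134635285, plus strand) encodes the paralogue also named PLU-1. It had 1 peak, chr1:134559955-134561903, of 1949 bp, wider than the widest TSS peak of 82.7% of coding genes. In contrast to Kdm5a it reached only 216 bp upstream of the first TSS and 1732 bp into the gene, where 69.8% of it was intron. No TSS of another gene lay inside. The 3 inner start clusters of Kdm5b, all of transcripts annotated with a retained intron, lacked a peak.

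Upstream of Kdm5b, 2 peaks lay just beyond the 1 kb limit and were not counted. The nearer one, chr1:134557173-134557401, was 229 bp wide and ended 2770 bp before the gene. The other, chr1:134556189-134557023, was 835 bp wide and ended 3148 bp before it. Each of them overlapped a listed enhancer, chr1:134557183-134557365 of 183 bp and chr1:134556297-134556854 of 558 bp. Both regions are intergenic and carry no annotated TSS. The larger enhancer had a GC content of 67.0%. Its observed to expected CpG ratio was 0.68, the highest ratio of the 23 enhancers described here, whose median was 0.16. Over all 32965 enhancers the median ratio was 0.19.

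Kdm1a (ENSMUSG00000036940, chr4:136550540-136602723, minus strand) encodes LSD1. Its only peak, chr4:136601487-136602810, was 1324 bp wide, and 54.6% of coding genes had a narrower one. It extended 87 bp upstream and 1236 bp downstream of the first TSS. More of it was coding exon than in any other of the 15 peaks, 26.7%. The ratio of observed to expected CpGs was 0.98, the highest of the 15 peaks, and 98.1% of all peaks had a lower ratio. Kdm1a had 6 inner start clusters, 2 of them with a transcript annotated as protein coding, and a peak at none of them.

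Kdm1b (ENSMUSG00000038080, chr13:47043499-47085279, plus strand) encodes LSD2. A peak of 1370 bp, chr13:47043454-47044823, held its start, and 57.7% of coding genes had a narrower widest peak. The peak began only 45 bp before the first TSS and ran 1324 bp into the gene, 84.2% of it over intron. A second peak of 360 bp, chr13:47042853-47043212, lay upstream of the gene with a gap of 241 bp to the first. Tpmt, the gene of thiopurine methyltransferase on the opposite strand, had TSSs inside both peaks. These marks cannot be given to one gene alone. The 3 inner start clusters of Kdm1b had no peak.

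**Figure D2:**
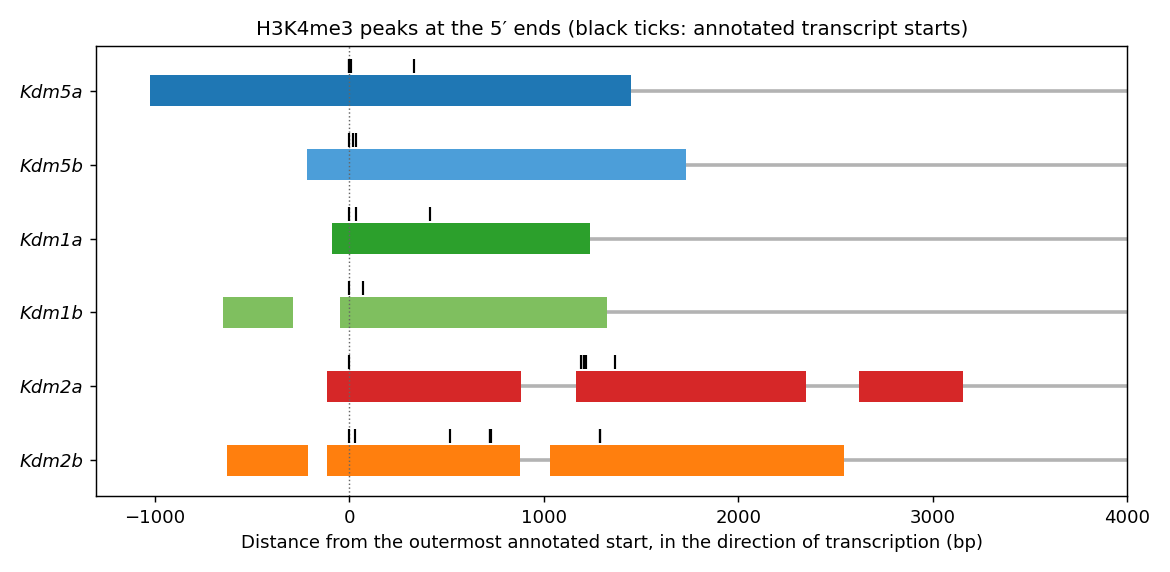
Peaks (coloured bars) at the 5′ end of each gene, as distance in bp from its outermost annotated start in the direction of transcription, with annotated transcript starts as black ticks and the gene body as a grey line. Kdm5a, Kdm5b and Kdm1a have 1 peak over the start, Kdm1b has a second one upstream, and Kdm2a and Kdm2b each have 3 peaks separated by short gaps.

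Kdm2a (ENSMUSG00000054611, chr19:4314419-4398285, minus strand) had 3 peaks at its 5′ end and 2 inside the gene. The first 5′ peak, chr19:4397404-4398401 with 998 bp, held the outermost TSS, of transcript Kdm2a-201. The second, chr19:4395936-4397117 with 1182 bp, held 5 TSSs of 6 transcripts, among them the start of the curated RefSeq transcript. The third, chr19:4395132-4395663 with 532 bp, lay wholly in intron and held no TSS. Gaps of 286 and 272 bp separated the 3 peaks, which together spanned 3270 bp. The first and second peak were rich in CpG, with observed to expected ratios of 0.75 and 0.87, whereas the third had a ratio of 0.11.

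The widest Kdm2a peak was inside the gene. It covered chr19:4332573-4333952, 1380 bp, with its centre 65.0 kb downstream of the outermost TSS, and 58.3% of coding genes had a narrower widest peak. The TSS of Kdm2a-210, a transcript without coding annotation, lay 33 bp inside its upstream edge. The TSS of the protein-coding transcript Kdm2a-212 was 49 bp outside the same edge. A predicted RefSeq transcript starts 187 bp outside it, and the curated RefSeq model has no start there. A small peak of 250 bp, chr19:4332015-4332264, followed after 308 bp. It lay in intron, held no CpG at all and no TSS.

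The internal Kdm2a peak also differed from the others in sequence and in its overlap with the enhancer list. It was the only widest TSS peak of the 6 genes without a CpG island. The other 5 overlapped one, as did 87.6% of coding genes with a TSS peak. Its GC content was 49.9% and its observed to expected CpG ratio 0.30, with 26 CpGs in 1380 bp. An enhancer of 1258 bp, chr19:4332624-4333881, lay entirely inside it. The authors had removed enhancers near known TSSs, but 8.99% of all listed enhancers, and 2 of the 23 described here, were no farther than 1 kb from a TSS in the annotation used here. A further enhancer of 656 bp, chr19:4334178-4334833, began 226 bp upstream of the peak. TSS peaks that hold a TSS and overlap an enhancer occurred in 1 of the 6 genes and in 3.91% of coding genes with a TSS peak.

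Kdm2b (ENSMUSG00000029475, chr5:122870665-122989823, minus strand) is the longest of the 6 genes and had the most start clusters, 14. Its 5′ end carried 3 peaks. The first, chr5:122990033-122990449 with 417 bp, lay upstream of the gene. The second, chr5:122988947-122989938 with 992 bp, held 5 TSSs of Kdm2b and a TSS of the antisense gene A930024E05Rik. The third, chr5:122987279-122988792 with 1514 bp, held the starts of Kdm2b-203 and Kdm2b-218. The gaps were 94 and 154 bp, and the 3 peaks spanned 3171 bp.

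Inside Kdm2b, 2 further peaks marked starts. A peak of 1046 bp, chr5:122951490-122952535, lay with its centre 37.8 kb into the gene and held the TSSs of Kdm2b-214, annotated as protein coding, and of Kdm2b-215, which is not. A peak of 2138 bp, chr5:122898844-122900981, was centred 89.9 kb into the gene. This was the widest peak of Kdm2b, and 87.3% of coding genes had a narrower one. It held the TSS of the protein-coding transcript Kdm2b-201 and the starts of 3 curated RefSeq transcripts, and 90.3% of it was intron. Both inner peaks overlapped a CpG island. The second held 199 CpGs, the most of the 15 peaks, and its ratio of observed to expected CpGs of 0.89 was higher than in 93.8% of all peaks. The sequence printed for the internal Kdm2b start comes from this peak. Over the whole peaks, the internal Kdm2b peak had 9.31 CpGs per 100 bp and the internal Kdm2a peak 1.88.

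That the widest peak was internal in both KDM2 genes depended on how neighbouring peaks were treated. When peaks within 1 kb of each other were merged, the 5′ group became the widest, with 3270 bp in Kdm2a and 3171 bp in Kdm2b. Those widths exceeded the widest merged TSS peak of 92.4% and 91.5% of coding genes. The other genes then took other ranks, with 80.2% for Kdm5a, 63.9% for Kdm5b, 64.7% for Kdm1b (1971 bp) and 35.3% for Kdm1a, which fell below the merged median of 1628 bp. Summed over all TSS peaks, Kdm2b reached 6107 bp, more than 99.7% of coding genes with a peak, and Kdm2a 3560 bp, more than 96.2%. Genes with more annotated starts have more occasions for such peaks. Kdm2b had 14 start clusters and Kdm2a 7, against a median of 2 over coding genes, and the sums were not matched for this.

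**Figure D3:**
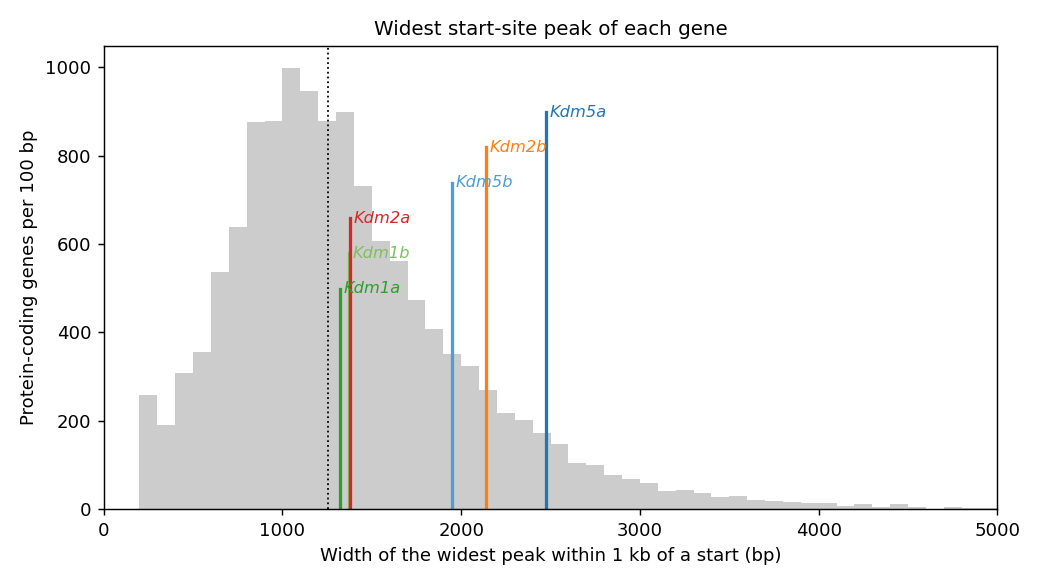
Distribution of the widest peak within 1 kb of a start over the 12966 protein-coding genes with such a peak (grey bars, genes per 100 bp of width, axis drawn to 5000 bp), with the 6 demethylase genes as coloured lines and the median of 1255 bp as a dotted line. With peaks as listed, all 6 lie to the right of the median, from 1324 bp in Kdm1a to 2475 bp in Kdm5a, whereas with peaks merged within 1 kb Kdm1a lies below the merged median of 1628 bp. The widest peak is taken over all annotated starts of a gene. The peak over the outermost start was narrower, 998 bp in Kdm2a and 992 bp in Kdm2b.

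Over the 6 genes the widest TSS peak had a median width of 1665 bp, against 1255 bp over all coding genes with a TSS peak (quartiles 908 and 1710 bp). Kdm5a, Kdm5b and Kdm2b lay above the upper quartile, and Kdm1a, Kdm1b and Kdm2a lay close to each other between the median and the upper quartile. With peaks as listed, the KDM1 genes were alike and Kdm2a and Kdm2b differed, with 1380 and 2138 bp. After merging this turned, since Kdm2a and Kdm2b had 3270 and 3171 bp and Kdm1a and Kdm1b 1324 and 1971 bp. The peak over the first TSS extended mostly downstream in all 6 genes. As listed, this peak reached 45 to 216 bp upstream in 5 of them and 1024 bp in Kdm5a. Downstream it reached 876 to 1732 bp. The medians over the 9491 coding genes whose first TSS lay in a peak were 304 bp upstream and 937 bp downstream. These reaches are of single peaks and depend on how neighbouring peaks were split. Kdm1b and Kdm2b had a further peak upstream, after gaps of 241 and 94 bp, whose outer end lay beyond 304 bp. Downstream, a further peak followed after 286 bp in Kdm2a and 154 bp in Kdm2b. The reach of merged peaks was not compared.

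The annotation gives the 6 genes 63 transcripts. Their TSSs formed 41 start clusters when split at gaps above 500 bp, and 12 of the clusters had a TSS inside a peak. Of these 12, 1 each belonged to Kdm5a, Kdm5b, Kdm1a and Kdm1b, 3 to Kdm2a and 5 to Kdm2b. The other 29 clusters lay between 582 and 64249 bp from the nearest peak of the same gene. In 23 of them no transcript was annotated as protein coding. The remaining 6 held a protein-coding transcript, and 1 each was in Kdm5a, Kdm1b, Kdm2a and Kdm2b and 2 in Kdm1a. Marked starts at least 10 kb apart were found in Kdm2a and Kdm2b, 2 of 6 genes, and in 2.00% of coding genes. Genes with many annotated starts have more occasions for this. Among the 857 coding genes with at least 7 start clusters, as many as Kdm2a, it was 15.4%. For Kdm2a the call rested on Kdm2a-210 alone, since no other annotated TSS of the inner cluster lay inside the peak. With TSSs of protein-coding transcripts only, or with those of RefSeq, 1 gene was left, Kdm2b.

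The inner starts were then set against the coding sequence of the longest isoform. In Kdm2b, 42.1% of the coding bases of Kdm2b-202 lie upstream of the start of Kdm2b-201, and 15.0% upstream of the start of Kdm2b-214. In Kdm2a, 42.5% of the coding bases of Kdm2a-201 lie upstream of the inner start cluster. The JmjC domain of these proteins precedes the CXXC zinc finger. To locate the finger, the coding sequences were translated and searched for its cysteine pattern (3 cysteines spaced by pairs of residues, then 4 or 5 residues, then a cysteine and glycine and 2 more cysteines). The pattern was found at residues 586 to 603 of the 1309 of Kdm2b-202, in exon 13, at chr5:122888599-122888652. Kdm2b-201 keeps this exon as its exon 2, with the pattern at residues 53 to 70 of 776, and 11 of its 12 coding exons were identical to exons of Kdm2b-202. In Kdm2a-201 the pattern lay at residues 571 to 588 of 1161, in exon 14, at chr19:4329022-4329075. Kdm2a-212, as far as it is annotated with 292 residues, has it at residues 131 to 148, and 4 of its 6 coding exons were identical to exons of Kdm2a-201. Both Kdm2b-201 and Kdm2a-212 thus include the CXXC pattern. Kdm2b-214, as far as it is annotated with 858 coding bases in 5 exons, does not. H3K4me3 at a start does not show which protein is made.

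**Figure D4:**
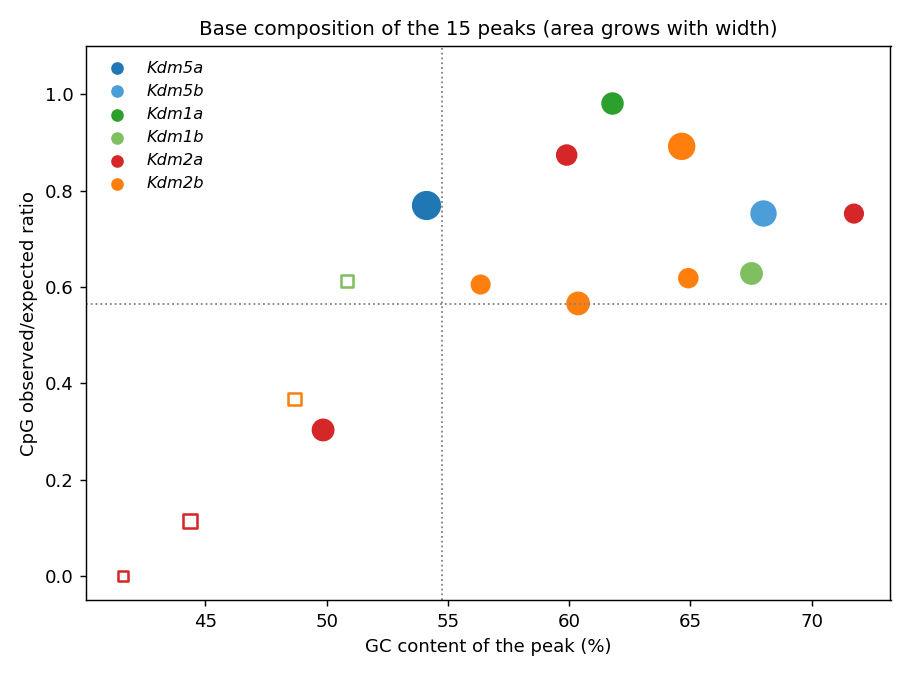
GC content (%) and ratio of observed to expected CpGs of the 15 peaks, coloured by gene, with filled circles for peaks that hold a TSS of the gene, open squares for those that do not, and larger symbols for wider peaks. Dotted lines are the medians of all peaks (54.8% and 0.57), and the internal Kdm2a peak is the only filled circle well below the horizontal line, at 0.30.

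In base composition, 11 of the 15 peaks overlapped a CpG island, as did 55.3% of all peaks. The 4 peaks without an island were 3 of Kdm2a, namely the third 5′ peak and both internal peaks, and the upstream peak of Kdm2b. GC content ran from 41.6% in the small internal Kdm2a peak to 71.7% in the first Kdm2a peak, and 9 of the 15 lay above the median of all peaks, 54.8%. Kdm5a had 54.1%, below that median, although its peak was the widest and its CpG ratio was 0.77. Of the 4 peaks without a TSS of their gene inside, 3 had a CpG ratio below 0.37 and the upstream Kdm1b peak, which holds a Tpmt start, had 0.61.

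Enhancers were listed in or within 50 kb of all 6 genes (62.3% of coding genes), 23 regions altogether with widths of 114 to 1960 bp and a median of 335 bp. The median of the list was 405 bp. Kdm1a had 7, Kdm5a and Kdm2a 5 each, Kdm5b 3, Kdm1b 2 and Kdm2b 1. The median of the 6 was 4, that of all coding genes 1 with quartiles of 0 and 3. Related to the length of gene and flanks, the range was 0.46 per 100 kb at Kdm2b to 4.60 per 100 kb at Kdm1a, with a median of 0.91 over coding genes. The longest of the 6 genes thus had the fewest enhancers. Kdm2b had none inside, and the same held for Kdm5b and Kdm1b. The list does not link enhancers to genes. For 8 of the 23, the nearest TSS was one of the demethylase gene itself, and 14 overlapped another gene.

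**Figure D5:**
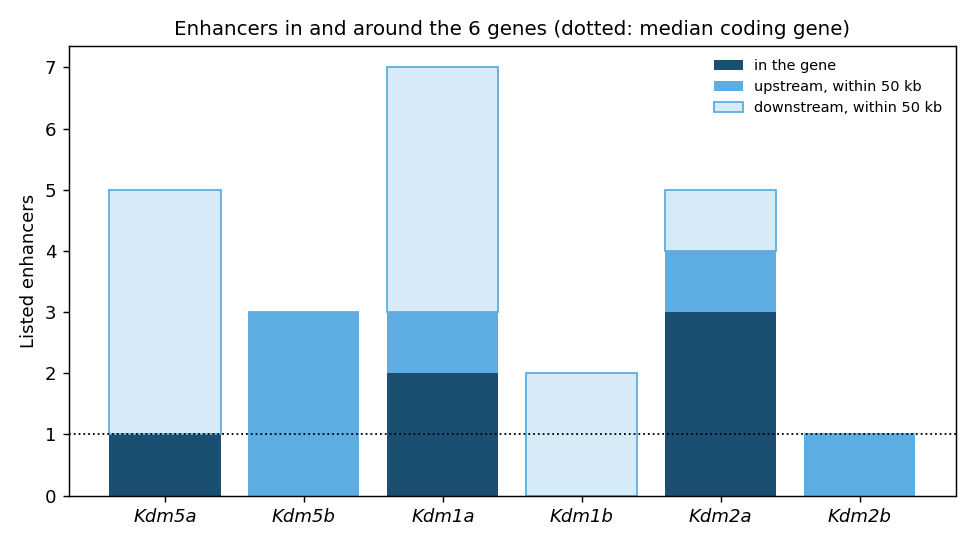
Number of listed enhancers in each gene (dark), upstream within 50 kb (middle blue) and downstream within 50 kb (light), with the median of 1 over all coding genes as a dotted line. Kdm1a has the most, 7, and Kdm2b the fewest, 1, and Kdm2a has the most inside the gene, 3.

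Inside the gene body, enhancers were found for Kdm2a (3), Kdm1a (2) and Kdm5a (1), that is for 3 of 6 genes and for 25% of coding genes. Besides those at its internal peak, Kdm2a had one of 375 bp, chr19:4315146-4315520, which lay wholly in exon without coding bases. The enhancer of 419 bp in Kdm5a, chr6:120443822-120444240, likewise lay wholly in noncoding exon at the 3′ end. In Kdm1a, the region of 315 bp at chr4:136581864-136582178 included 60 coding bases, and the one of 210 bp at chr4:136566835-136567044 was intronic. The other 17 enhancers comprised 6 upstream and 11 downstream. All 4 downstream of Kdm5a lay in Il17ra, the gene of an interleukin receptor subunit, and 22.0 to 38.4 kb beyond Kdm5a. The 4 downstream of Kdm1a lay in Luzp1, 1825 to 44660 bp beyond it. Both at Kdm1b lay in Dek, 8894 and 10801 bp downstream. The only enhancer at Kdm2b, chr5:122994712-122994928 of 217 bp, was 4889 bp upstream. At the 50 kb limit, the farthest enhancer counted was 46.1 kb from Kdm1a and the nearest left out 61.0 kb from Kdm1b.

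Of the 23 enhancers, 4 overlapped an H3K4me3 peak, and 7.52% of all enhancers did. They were the pair upstream of Kdm5b, the region inside the internal Kdm2a peak, and the widest of the 23, of 1960 bp, chr4:136648856-136650815. The last lies in Ephb2, an ephrin receptor gene, 46.1 kb upstream of Kdm1a, and overlapped 2 peaks of 442 and 280 bp. TGACTCA or its complement TGAGTCA, the sequence bound by AP-1 factors, was found in the central 200 bases of 1 of the 23, the enhancer at the 3′ end of Kdm5a, and in 11.4% of all enhancers.

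The demethylase genes were finally compared with the genes of the opposing activity and with those of their partners, as a description without a test. The 6 H3K4 methyltransferase genes had wider marks. Their widest TSS peaks ran from 2348 bp in Kmt2a to 4326 bp in Kmt2d with a median of 2940 bp, and of the demethylases Kdm5a reached into this range. With peaks merged within 1 kb, their range was 2617 bp in Setd1a to 9859 bp in Setd1b with a median of 3734 bp, and Kdm2a and Kdm2b reached into it while Kdm5a did not. The 4 genes of the core complex ran from 1236 bp in Dpy30 to 2234 bp in Wdr5, with a median of 1653 bp. After merging, they ran from 1709 bp in Dpy30 to 3716 bp in Ash2l with a median of 2316 bp. Ash2l, whose exon 4 was deleted in these cells, had 12 peaks as listed, more than Kdm2a or Kdm2b. Its number of merged peaks is not given here. Whether reads from the human ASH2L construct were mapped to Ash2l, and so added to its peaks and merged width, was not tested. None of these 10 genes had 2 marked starts at least 10 kb apart. The median number of enhancers was 3 in either list, against 4 for the demethylases. Of the other KDM5 genes, Kdm5c on the X chromosome had a TSS peak of 2006 bp, between those of Kdm5b and Kdm5a, and Kdm5d on the Y chromosome had none. Whether the cells carry a Y chromosome is not given in the sources used here.

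Among the partners, all 12 genes of the LSD1 complexes had a TSS peak, from 1081 bp in Zmym3 to 3864 bp in Phf21a with a median of 1336 bp. So did all 14 SIN3 partners, from 520 bp in Sap130 to 2833 bp in Phf12 with a median of 1438 bp. The 9 partners of KDM2B in variant PRC1 were all marked, from 1307 bp in Skp1a to 4424 bp in Bcor with a median of 1894 bp. The 10 other CXXC zinc finger genes were all marked as well, from 1021 bp in Cxxc1 to 3619 bp in Fbxl19 with a median of 2061 bp. Of 16 demethylases of other histone lysines, 15 had a TSS peak and Uty, on the Y chromosome, had none. For Uty the same limit holds as for Kdm5d. Their widest peaks ran from 403 bp in Kdm6b to 2772 bp in Phf2 with a median of 1436 bp. Marked starts at least 10 kb apart occurred in 1 LSD1 partner (Gse1), 0 SIN3 partners, 1 PRC1 partner (Bcor), 2 CXXC genes (Tet1 and Tet3) and 1 other demethylase (Jmjd1c), genes named after their values were seen.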

How the data were processed

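The authors trimmed the reads (Trim Galore), mapped them to mm10 (GRCm38.p6) using BWA and cleaned the alignments with SAMtools. Picard joined the replicates. MACS called narrow peaks for H3K4me3, H3K27ac and accessible chromatin, and broad peaks for H3K4me1. Thresholds are not given in the sources used here. The 2 lists used here hold positions, with 0 columns of values per sample, so no test was run. The paper also names lists of sites changed at each time point, which were not used here. Peak starts were taken to count from 0, since end minus start was never below 200, and enhancer starts from 1. All positions here count from 1. No region passed a chromosome end of the reference over 21 chromosomes.

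TSSs and gene bodies were those of GENCODE M21. CpG islands were called on the sequence with repeats masked, by scoring 17 for a CpG and -1 for other bases, and kept at lengths above 200 bp, GC contents above 50% and observed to expected ratios above 0.6. A percentage of narrower genes is the share of coding genes with a TSS peak whose widest one is narrower. The named genes were the 6 members, genes sharing their peaks, and of each list the widest, the narrowest and the unmarked. Members and lists were chosen with earlier results of these data known. The functions were tested on simulated data. The tools were Matplotlib 3.10.9, Numba 0.67.0, pandas 2.3.3, NumPy 2.4.6 and Python 3.11.15.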

Additional observations from a re-analysis of the deposited data

How the results depend on the processing

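All 6 genes kept a TSS peak with windows of 500 bp and 2 kb, with protein-coding or RefSeq TSSs, and with peaks of at least 500 bp. The 15 peaks became 9 when peaks within 1 kb were merged, 5 to 2 in Kdm2a and 5 to 3 in Kdm2b, and Kdm1a then fell below the median width of coding genes. The median widest TSS peak was then 2223 bp, and 1347 bp with 1 TSS per gene. With 1 TSS per gene, Kdm2a had 998 bp and Kdm2b 992 bp, below the 1255 bp median of coding genes over all their TSSs. A median of coding genes with 1 TSS per gene is not given here. The median share of coding genes with a narrower peak, 70.5%, was 72.5% after merging and 68.1% among genes whose widest peak overlaps a CpG island. The 23 enhancers were 6 in the gene bodies alone and 15 within 25 kb. Marked starts at least 10 kb apart were left in 1 gene with protein-coding TSSs, in 1 with RefSeq TSSs and in 1 with curated RefSeq TSSs. They were found in 2 genes at limits of 5 and 25 kb. These alternatives for distant starts, and merging for single genes and for the methyltransferase and core complex genes, were chosen after seeing the data. The other alternatives moved no count by over 1.5 times. The causes follow from how each alternative was built. No paired analysis was possible because the peak list pools the libraries, the enhancer list comes from control cells, and both hold positions alone. For the same reason, no library could be left out, and depth and replicate error are unknown.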
